A study of Homo sapiens with 6 samples.

Results

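Small nucleolar RNA (snoRNA) host genes were examined by RNA-seq in cells whose label is Daudi, the name of a Burkitt lymphoma B-cell line. The members were every row of the deposited expression table whose symbol was SNHG followed by a number, together with GAS5, ZFAS1, EPB41L4A-AS1, DANCR and MALAT1. This rule gave 30 of the 58273 rows, with 29 symbols, because MALAT1 occurred on 2 rows. Per the labels, 3 libraries were made from cells with ENO1 knocked down by a short hairpin (shENO1) and 3 from wild type cells, and the libraries of each group were numbered 1 to 3. ENO1 encodes the glycolytic enzyme alpha-enolase. The hairpin was set against unmodified cells, since the labels name no control hairpin, and no label says that replicates were separate cultures, so p-values measure the spread between these libraries, which may be technical. Values are FPKM, which scale fragments by transcript length and by library size, so levels can be compared between genes.

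The libraries summed to between 958700 and 1054000 FPKM, and their absolute depth is unknown. ENO1 stood at 212, 242 and 368 FPKM in shENO1 replicates 1 to 3, against 927, 998 and 1747 FPKM in wild type replicates 1 to 3. The labelled cell type was checked against markers. Of 12 B-cell markers, CD79B, POU2AF1, CR2 and BLK were listed at 0 in all 6 libraries, and MS4A1 and IGHM did not pass the filter used below, while CD22, PAX5 and EBF1 lay between 2.465 and 5.26 FPKM. Of 13 myeloid markers some were abundant in both groups, with CTSG between 236 and 536 FPKM, LYZ between 154 and 481 FPKM and AZU1 between 102 and 203 FPKM. Others were low, with ITGAM between 4.67 and 8.16 FPKM, CD14 at most 0.375 FPKM and MPO at most 0.161 FPKM. A gene listed at 0 in such a table can be a failed estimate, so these zeros do not show absence, and the cells are called by their group labels below.

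snoRNAs are short nuclear RNAs that guide chemical modification of ribosomal RNA. Most are cut out of introns of longer host transcripts, and the spliced exons of the noncoding hosts often carry no conserved reading frame and are kept low by nonsense-mediated decay, a pathway that degrades translated RNAs with early stop codons. Several hosts begin, like ribosomal protein genes, with a terminal oligopyrimidine (TOP) tract, a run of C and T at the transcription start that ties an RNA to growth-dependent translation. GAS5 was found as a transcript that accumulates on growth arrest. MALAT1, an abundant RNA of nuclear speckles, hosts no snoRNA in its body and entered by name.

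Transcription start sequences are shown because the TOP tract is the feature many hosts share, and they set members with similar levels in all libraries beside members that varied. RefSeq gave windows for 25 of the 29 symbols (build GRCh38.p14, RefSeq start positions). Each run holds 20 bases before the start and 30 from it on, written 5′ to 3′ on the transcribed strand. Capitals mark a match to the motif CTTTC, the motif CTTTT, the motif CCTTT or the motif CTCTT within 10 bases on either side of the start, and CCTTTC holds 2 overlapping matches. The first 3 members showed small differences between libraries, the next 3 varied with the replicate number, and the last 3 varied with it but held no match. Of the first 3, SNHG5 was lowest in the library numbered 3 in each group.
ZFAS1 (chr20:49278622-49278671, plus strand): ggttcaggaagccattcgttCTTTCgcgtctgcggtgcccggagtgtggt
SNHG5 (chr6:85678704-85678753, minus strand): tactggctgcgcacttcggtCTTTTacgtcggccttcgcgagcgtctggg
SNHG8 (chr4:118278742-118278791, plus strand): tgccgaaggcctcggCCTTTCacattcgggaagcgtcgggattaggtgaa
SNHG12 (chr1:28581844-28581893, minus strand): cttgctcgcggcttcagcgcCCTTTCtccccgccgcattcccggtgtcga
SNHG16 (chr17:76557744-76557793, plus strand): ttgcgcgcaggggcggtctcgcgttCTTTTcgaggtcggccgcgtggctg
SNHG4 (chr5:139274081-139274130, plus strand): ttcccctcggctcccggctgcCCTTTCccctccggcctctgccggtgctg
SNHG1 (chr11:62855856-62855905, minus strand): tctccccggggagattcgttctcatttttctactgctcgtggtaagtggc
SNHG3 (chr1:28505923-28505972, plus strand): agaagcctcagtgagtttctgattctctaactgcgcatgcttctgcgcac
DANCR (chr4:52712374-52712423, plus strand): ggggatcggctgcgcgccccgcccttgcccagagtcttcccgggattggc

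In the 26 member windows (MALAT1 had 2) at least 1 of the 4 motifs occurred in 7, or 26.9%, against 8.63% of all 35116 promoter windows. Besides the 6 shown, the seventh was SNHG19. The motifs were searched on the transcribed strand only, and a tract written with other letters or starting at another annotated start is not counted. CACGTG, the palindromic E-box bound by MYC and MAX, occurred in 1 of the 26 member windows of 300 bases, that of SNHG7, against 7.26% of all promoter windows.

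Levels differed widely between members. Of the 30 rows, 26 passed the filter of at least 0.5 FPKM in at least 3 libraries, and 19 of them averaged 20 FPKM or more. MALAT1 (ENSG00000251562.7, chr11:65497688-65506516, plus strand, GENCODE release 29 on GRCh38) was highest, at 1432, 1734 and 1286 FPKM in the shENO1 libraries, against 1563, 1867 and 1128 FPKM in the wild type libraries. It held between 30.2% and 44.4% of the summed FPKM of all members. GAS5 (ENSG00000234741.7, chr1:173863900-173868882, minus strand) followed, at 558, 591 and 477 FPKM in the shENO1 libraries, against 582, 712 and 442 FPKM in the wild type libraries. In both genes and both groups the library numbered 3 was lowest and the groups overlapped. SNHG5, host of SNORD50, came next at 424, 414 and 363 FPKM in the shENO1 libraries, against 382, 398 and 367 FPKM in the wild type libraries. Over the 25 neighbouring pairs in the order of mean levels, the ranges over libraries were apart for only 3, MALAT1 above GAS5, GAS5 above SNHG5, and SNHG3 above SNHG8. The order of the other 22 neighbours was within their spread.

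**Figure D1:**
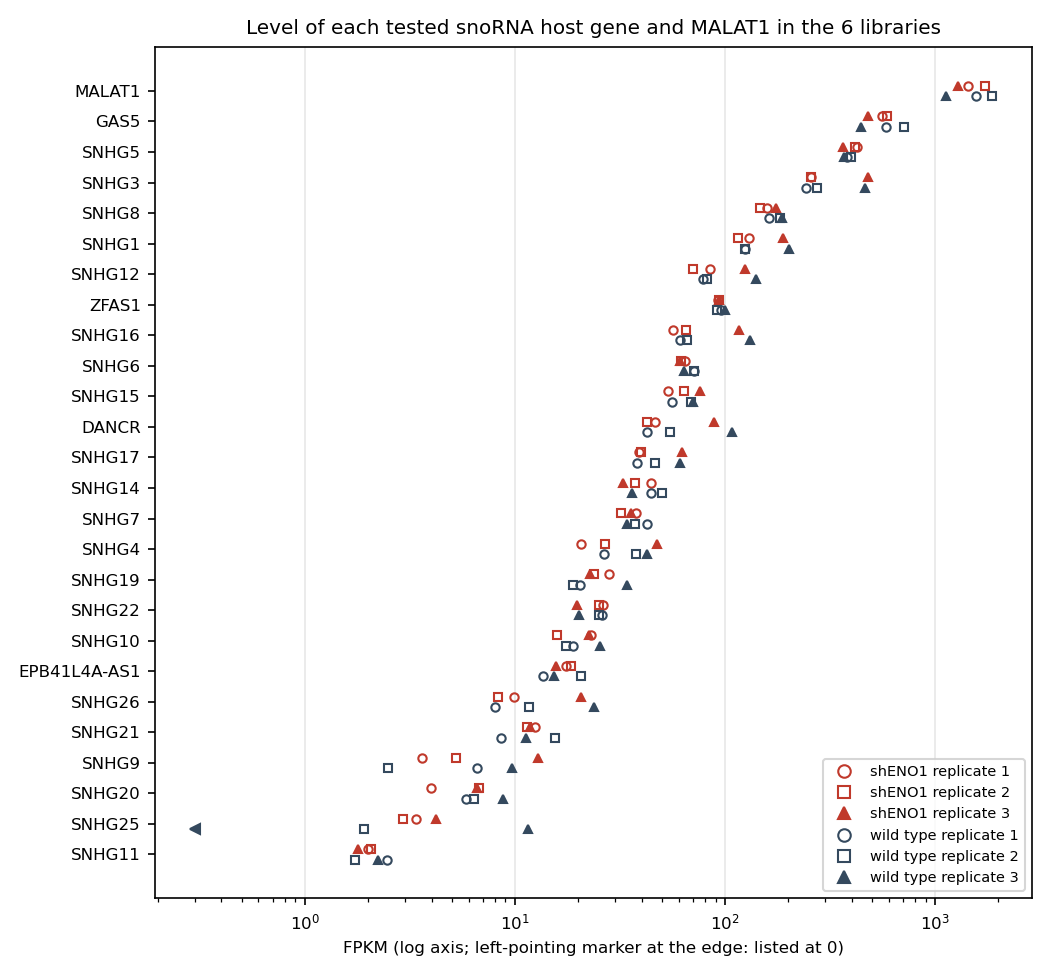
FPKM (log axis) of the 26 members past the filter in each library, shENO1 above wild type within each row, ordered by mean level. MALAT1 lies between 1128 and 1867 FPKM, ZFAS1 between 91.3 and 99.8 FPKM, and the filled triangles (replicate 3) of SNHG3, SNHG1, SNHG12, SNHG16 and DANCR lie to the right in both groups.

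The 4 rows below the filter were SNHG18, SNHG27, SNHG28 and the second MALAT1 row. SNHG18, SNHG27 and that row, annotated as a short RNA family entry of 95 bases inside MALAT1, were listed at 0 in all libraries. SNHG28 reached 0.0833 FPKM in shENO1 replicate 2, against 0.0426 FPKM in wild type replicate 3 and about 0 elsewhere.

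The snoRNAs themselves were nearly all listed at 0. In GENCODE release 29, 136 snoRNA rows of the table lie inside a member on the same strand, in 26 hosts, with 84 of them in SNHG14. This release annotates no snoRNA gene inside GAS5, so the snoRNAs that GAS5 is known to host are not among them. Of the 136 rows 131 were listed at 0 throughout and 3 passed the filter. Those 3 are annotated at 275 (SCARNA13), 198 (SNORA74A) and 272 bases (SNORA71B). The rows at 0 are mostly shorter, the longest being SNORA73B at 204 bases. Here too a 0 can be a failed estimate, so these zeros do not show that the snoRNAs were absent. SCARNA13, in SNHG10, was at 312, 253 and 253 FPKM in the shENO1 libraries, against 296, 316 and 233 FPKM in the wild type libraries. SNORA74A, in SNHG4, was at 79.6, 34.7 and 119 FPKM in the shENO1 libraries, against 39.4, 112 and 139 FPKM in the wild type libraries. Both rows overlapped between the groups. SNORA71B, in SNHG17, is added after its values were seen, at 15.3, 18.1 and 26.7 FPKM in the shENO1 libraries, against 3.97, 12.9 and 11.2 FPKM in the wild type libraries. All its shENO1 libraries lay above all wild type libraries, with a log2 fold change of 1.17 (SE 0.43) and an unadjusted limma p of 0.0286. It was not called, as its adjusted p over all genes was 0.9999, and from 0.528 to 1 in the alternative fits. Its host SNHG17 overlapped between the groups. Reads of a snoRNA and of its host can be divided in uncertain ways, as can reads of overlapping genes. The sources used here do not say whether counting used strand. The exons of 15 tested members share bases with another tested gene, among them SNHG3 with RCC1 (5.92% of the exon bases of SNHG3), SNHG10 with GLRX5 (20.1%) and SNHG21 with a processed transcript that carries the symbol SCARNA15 (72.9%). That entry is not the SCARNA15 row of 127 bases inside SNHG21, which was listed at 0. SNHG14, a locus of 440.9 kb known for the imprinted snoRNAs SNORD115 and SNORD116, runs antisense to UBE3A.

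The comparison of shENO1 with wild type asked whether ENO1 knockdown changed these RNAs. With limma, a linear model with moderated variances, 0 of 26 members were called when an adjusted p under 0.05 and a log2 fold change beyond 1 in size were required, against 0% of all 17870 genes tested. ENO1 itself was thus not called, though each shENO1 library held less of it than every wild type library. A count of 0 calls therefore does not show that these RNAs were unchanged. At an unadjusted p under 0.05 there were 0 members, against 1.98% of all genes. All shENO1 libraries lay above all wild type libraries for 0 members, against 2.71% of all genes, and all lay below for 0 members, against 3.28%. The log2 fold changes, on the log2(FPKM + 0.5) scale, had a median of -0.05 over the members and of -0.0036 over all genes, and 7 members lay above 0 and 19 below. With libraries scaled to the same FPKM sum, 12 of 26 lay above 0, where the median over all genes moved as well, to 0.0351. With 1 library left out between 4 and 15 members lay above 0. The adjusted p was 0.9999 for each member.

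GAS5 averaged 542 ± 59.0 FPKM in shENO1 and 579 ± 135 FPKM in wild type (SD, n = 3 each). Its log2 fold change was -0.07, with a 95% interval of -0.52 to 0.37. ZFAS1, which hosts the SNORD12 family and starts beside ZNFX1 on the other strand, had the smallest SD relative to its mean over the 6 libraries. It stood at 92.4, 93.9 and 93.0 FPKM in the shENO1 libraries, against 95.5, 91.3 and 99.8 FPKM in the wild type libraries. The interval of its log2 fold change, -0.04, was -0.28 to 0.21. All 6 libraries thus lay within 10 FPKM of each other for ZFAS1, while GAS5 ranged from 442 to 712 FPKM.

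The smallest p-values belonged to members that averaged lower in shENO1. SNHG8, host of SNORA24, was at 158, 146 and 175 FPKM in the shENO1 libraries, against 161, 182 and 186 FPKM in the wild type libraries, with a log2 fold change of -0.15 (95% interval -0.43 to 0.14). SNHG6, host of SNORD87, was at 64.3, 61.6 and 61.2 FPKM in the shENO1 libraries, against 70.8, 70.7 and 63.6 FPKM in the wild type libraries, with a log2 fold change of -0.13 (-0.39 to 0.13). In both genes a single wild type or shENO1 library made the groups overlap. SNHG14 was at 44.4, 37.3 and 32.7 FPKM in the shENO1 libraries, against 44.6, 50.1 and 35.9 FPKM in the wild type libraries. SNHG20, host of SCARNA16, was at 3.98, 6.70 and 6.60 FPKM in the shENO1 libraries, against 5.86, 6.40 and 8.76 FPKM in the wild type libraries. SNHG7, which hosts the SNORA17 pair, was at 37.6, 32.0 and 35.5 FPKM in the shENO1 libraries, against 42.5, 37.2 and 34.1 FPKM in the wild type libraries. The unadjusted limma p of these genes and of SNHG4 lay between 0.267 and 0.499. Within same-numbered libraries, SNHG8, SNHG6, SNHG14 and SNHG16 were lower in shENO1 in 3 of 3 pairs, against 15.8% of all genes, and 0 members were higher in 3 of 3, against 14.1%. The 4 of 26 are a share near that over all genes.

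For 22 of the 26 members the 95% interval lay within 1 log2 unit on either side of 0, and for 7 within 0.5. The exceptions to the first were DANCR, SNHG26, SNHG9 and SNHG25. These intervals come from the fit without the replicate number, so they also hold the differences between numbers. With the number in the fit, the SE fell from 0.401 to 0.108 for DANCR and from 0.458 to 0.162 for SNHG26. It fell from 0.562 to 0.332 for SNHG9 and from 1.01 to 0.788 for SNHG25. In that fit the smallest unadjusted limma p of a member was 0.0764, for SNHG6. SNHG25, whose annotated exons span 278 bases, was listed at 0 in wild type replicate 1 and at 11.5 FPKM in wild type replicate 3, and no statement on its direction can rest on these values.

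**Figure D2:**
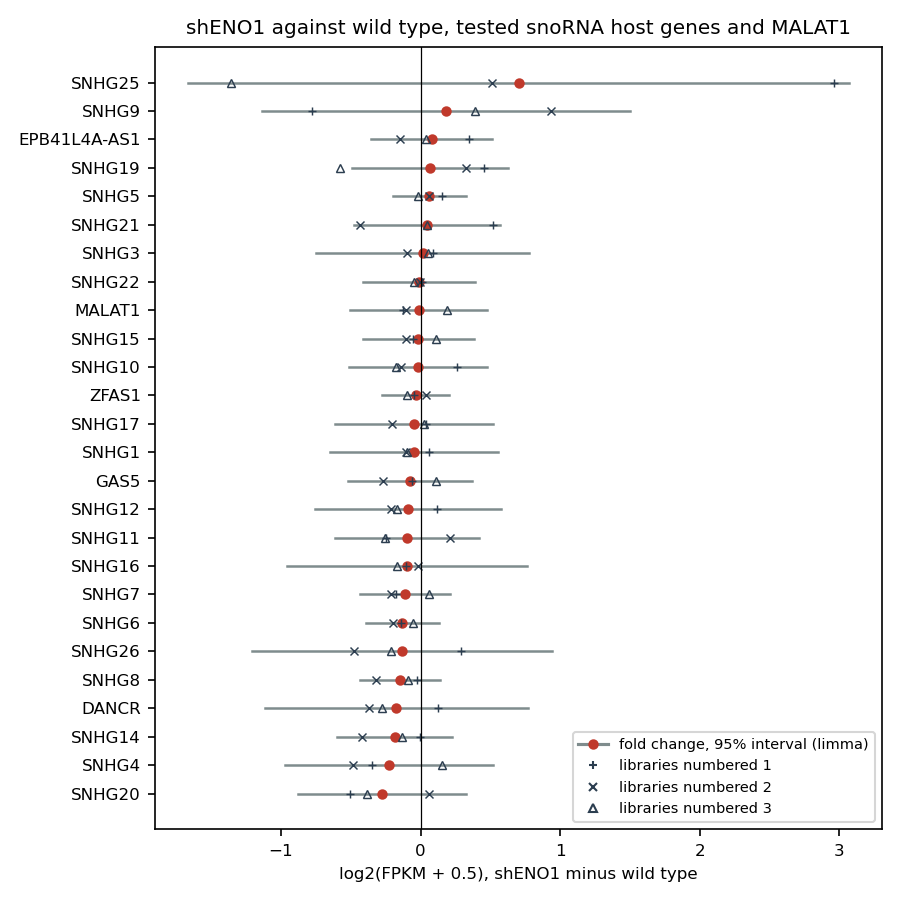
Log2 fold change of each tested member, shENO1 minus wild type, as a red point with its 95% interval (limma), and the difference within same-numbered libraries as black symbols. All 26 intervals cross 0, and that of ZFAS1 runs from -0.28 to 0.21.

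The other members of 20 FPKM or more that are not yet given showed the same overlap. SNHG19, host of SNORD60, was at 28.1, 23.7 and 22.8 FPKM in the shENO1 libraries, against 20.4, 18.8 and 34.2 FPKM in the wild type libraries. The shENO1 library was higher in the pairs numbered 1 and 2 and lower in the pair numbered 3. SNHG22, host of SCARNA17 and SCARNA18, was at 26.2, 25.2 and 19.6 FPKM in the shENO1 libraries, against 25.9, 25.2 and 20.2 FPKM in the wild type libraries. SNHG10 was at 22.9, 15.8 and 22.4 FPKM in the shENO1 libraries, against 18.96, 17.5 and 25.4 FPKM in the wild type libraries. Below this level, EPB41L4A-AS1, host of SNORA13, ranged from 15.7 to 18.5 FPKM in shENO1 and from 13.6 to 20.5 FPKM in wild type. SNHG21 ranged from 11.4 to 12.5 FPKM in shENO1 and from 8.57 to 15.6 FPKM in wild type. SNHG9 ranged from 3.62 to 12.8 FPKM in shENO1 and from 2.49 to 9.67 FPKM in wild type, and SNHG11 stayed between 1.72 and 2.44 FPKM in all libraries.

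Many members varied with the replicate number. In a limma fit with group and replicate number, the number term was called at an adjusted p under 0.05 for 10 of 26 members (38.5%), against 18.8% of all 17870 genes. The 10 were SNHG16, SNHG3, SNHG1, DANCR, SNHG12, SNHG17, SNHG26, SNHG4, SNHG15 and MALAT1, with adjusted p from 0.00976 to 0.0454. For 9 of these both libraries numbered 3 lay above the other 4 libraries, and for MALAT1 both lay below. Over all 26 members this was so for 11 (above) and 5 (below), against 22.9% and 24.6% of all genes. Over all genes and members alike, the calls depended on the libraries numbered 3, the intensity trend and the filter. Without wild type replicate 3, 0 members and 0.00571% of genes were called, and without shENO1 replicate 3, 3 members (SNHG16, SNHG3 and MALAT1) and 4.10% of genes. Without the trend 0 members and 0% of genes were called, and without the filter 0 members and 0.00686% of genes. At an unadjusted p under 0.05 there were 15 members, against 37.2% of all genes, and without the trend 10 members, against 32.1%.

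SNHG16, host of the SNORD1 family, showed the smallest p of the number term. It was at 56.7, 65.1 and 117 FPKM in the shENO1 libraries, against 60.9, 66.0 and 132 FPKM in the wild type libraries. On the log2 scale the library numbered 3 exceeded the mean of numbers 1 and 2 by 0.938 in shENO1 and by 1.048 in wild type. SNHG3, host of SNORA73, a snoRNA needed for cleavage of the ribosomal RNA precursor, was at 257, 255 and 480.2 FPKM in the shENO1 libraries, against 241, 272 and 464 FPKM in the wild type libraries. Its difference was 0.91 in shENO1 and 0.85 in wild type. DANCR, host of SNORA26 and known for holding epidermal progenitors undifferentiated, was at 46.2, 42.3 and 88.8 FPKM in the shENO1 libraries, against 42.4, 54.7 and 108 FPKM in the wild type libraries. In each of these genes the lower library numbered 3 lay above all 4 others.

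SNHG1, the host of SNORD22 and SNORD25 to SNORD30, was at 129, 115 and 189.6 FPKM in the shENO1 libraries, against 124, 124 and 202 FPKM in the wild type libraries. SNHG12, host of SNORD99 and of several SNORA genes, was at 85.0, 70.5 and 124 FPKM in the shENO1 libraries, against 78.5, 81.9 and 139.8 FPKM in the wild type libraries. SNHG17, host of the SNORA71 cluster, was at 38.9, 40.0 and 62.1 FPKM in the shENO1 libraries, against 37.9, 46.1 and 61.0 FPKM in the wild type libraries. For these genes the numbers 1 and 2 lay closer to each other than to number 3 in both groups. SNHG26, host of SNORD93, was at 9.87, 8.27 and 20.5 FPKM in the shENO1 libraries, against 7.99, 11.7 and 23.8 FPKM in the wild type libraries, the largest shift among the 10, at 2.30-fold over both groups. SNHG4 was at 20.7, 26.6 and 47.3 FPKM in the shENO1 libraries, against 26.5, 37.5 and 42.4 FPKM in the wild type libraries. SNHG15, host of SNORA9, was at 53.4, 63.7 and 76.0 FPKM in the shENO1 libraries, against 55.5, 68.4 and 70.5 FPKM in the wild type libraries. In SNHG4 and SNHG15 the libraries numbered 1 were lowest within each group, and number 3 was close to number 2 in wild type.

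**Figure D3:**
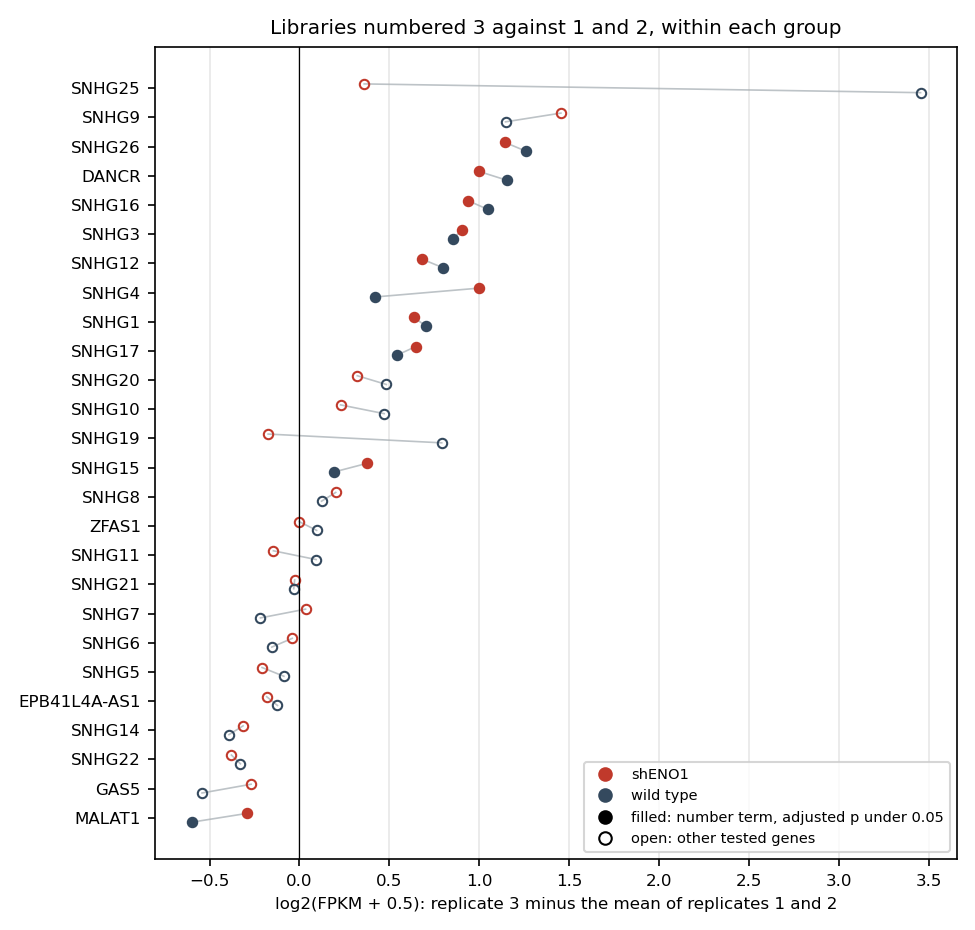
Log2(FPKM + 0.5) of the library numbered 3 minus the mean of numbers 1 and 2, in shENO1 (red) and wild type (dark) for each tested member. Filled points were called for the number term. SNHG16 lies at 0.938 in shENO1 and 1.048 in wild type, MALAT1 at -0.29 in shENO1 and -0.60 in wild type, and SNHG19 and SNHG25 differ most between the groups.

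The members did not all follow this direction. MALAT1 was lower in the libraries numbered 3, by 0.29 log2 units in shENO1 and 0.60 in wild type. GAS5, SNHG14, SNHG22 and SNHG5 lay in the same direction without being called, with limma adjusted p of 0.0542, 0.122, 0.0553 and 0.259. In SNHG5 both libraries numbered 3 lay below all others, by a small margin. In 7 fits with another filter, pseudocount or scaling, GAS5 was called in 4, SNHG22 in 3 and SNHG5 in 1, while SNHG15 lost its call in 3, SNHG4 in 2 and MALAT1 in 1. ZFAS1, SNHG6, SNHG7 and SNHG8 had adjusted p between 0.261 and 0.795. The median difference over the 26 members was 0.22 in shENO1 and 0.31 in wild type, against -0.02 in shENO1 and -0.04 in wild type over all genes. Of the 7 members with a pyrimidine motif at the start 3 were called for the number term, as were 6 of the 15 other tested members with a start window. The motif search can miss a TOP tract, so this split does not separate members with such a tract from members without one.

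Proteins that package and build snoRNA particles were read beside their RNAs. All 8 tested snoRNP core proteins were called for the number term, against 18.8% of all genes, each with both libraries numbered 3 above the other 4. NOP58, a box C/D core protein, was at 45.2, 53.6 and 98.5 FPKM in the shENO1 libraries, against 50.7, 60.2 and 110 FPKM in the wild type libraries. GAR1, a box H/ACA core protein, was at 18.4, 18.9 and 42.3 FPKM in the shENO1 libraries, against 18.4, 19.002 and 46.4 FPKM in the wild type libraries. Their pattern was that of SNHG16 and SNHG3. Of 11 assembly factors 8 were called, all higher in number 3, with NOLC1 at 62.7, 68.8 and 135 FPKM in the shENO1 libraries, against 61.0, 75.4 and 148 FPKM in the wild type libraries. RUVBL1, a helicase of the assembly complex, was at 29.02, 32.9 and 56.0 FPKM in the shENO1 libraries, against 29.2, 35.8 and 60.6 FPKM in the wild type libraries. Between shENO1 and wild type, limma called 0 genes of either list, and the median log2 fold change was -0.04 for the core proteins and -0.07 for the assembly factors. The group p was smallest for NOP10 (log2 fold change 0.12) and NOP58 (-0.16) among core proteins, and for NAF1 (-0.10) and ZNHIT6 (-0.13) among assembly factors.

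Of 19 nonsense-mediated decay factors 9 were called for the number term, against 18.8% of all genes, 8 of them with number 3 above the other 4 libraries. EIF4A3, the helicase of the exon junction complex, was at 49.5, 53.4 and 91.1 FPKM in the shENO1 libraries, against 44.9, 51.4 and 93.2 FPKM in the wild type libraries. RBM8A, its partner in the complex, was at 52.3, 49.3 and 89.2 FPKM in the shENO1 libraries, against 44.1, 54.1 and 93.8 FPKM in the wild type libraries. The median log2 fold change between shENO1 and wild type was 0.0054, with 0 called, and PNRC2 (0.10) and MAGOH (-0.18) had the smallest p.

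Protein-coding snoRNA hosts make up the next list. Of 35 tested, 10 (28.6%) were called for the number term, against 18.8% of all genes. Of these 9 were higher and 1 lower in the libraries numbered 3. Among the 35, NOP56 and DKC1 belong to the core proteins as well. HSPA8, a chaperone gene that hosts SNORD14, was at 419, 393 and 1246 FPKM in the shENO1 libraries, against 408, 455 and 1343 FPKM in the wild type libraries. NCL, which encodes nucleolin, was at 234, 267 and 529 FPKM in the shENO1 libraries, against 243, 300.03 and 629 FPKM in the wild type libraries. The median difference of number 3 was 0.02 over these hosts, many of them ribosomal protein genes. Between shENO1 and wild type 31 of the 35 lay below 0 and 4 above, with a median of -0.07 and 0 called. The median over all genes was -0.0036, and 0.0351 with libraries scaled to the same FPKM sum. The count of 31 is not given for that scaling, and genes of the list are not independent. RPL5 (-0.23) and RPL12 (-0.19) had the smallest p, 0.0854 and 0.120 unadjusted in limma. Of 20 other long noncoding RNAs 3 (15%) were called, near the 18.8% over all genes, and all 3 were lower in number 3. NEAT1, the scaffold of nuclear paraspeckles and a neighbour of MALAT1, was at 122, 184 and 65.7 FPKM in the shENO1 libraries, against 142, 186 and 61.9 FPKM in the wild type libraries. LINC-PINT was at 21.9, 14.8 and 10.7 FPKM in the shENO1 libraries, against 18.6, 14.1 and 9.97 FPKM in the wild type libraries. Between the groups TERC (0.63) and MIR17HG (-0.25) had the smallest p, and limma called 0 of these RNAs. In none of these 5 lists did a gene reach an unadjusted limma p under 0.05 between the groups.

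**Figure D4:**
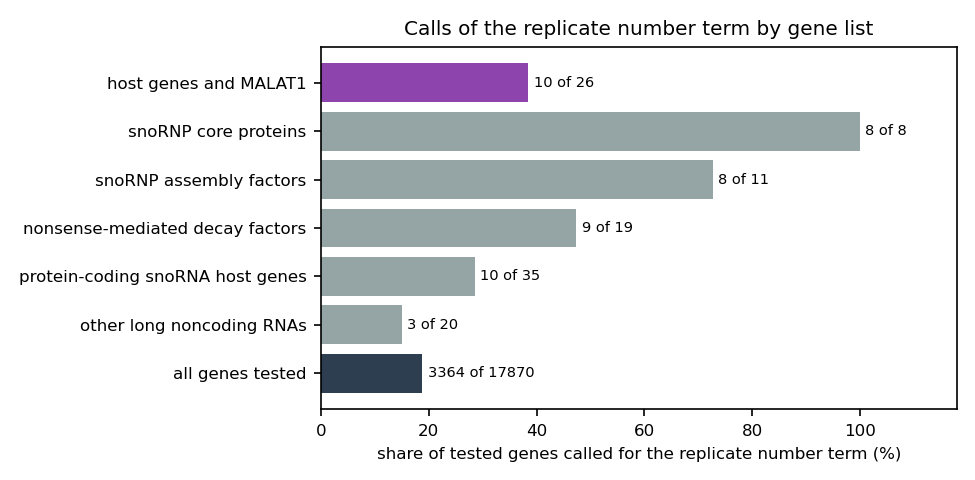
Share of tested genes called for the replicate number term (limma, adjusted p under 0.05) in the host genes with MALAT1, in 5 related lists and over all genes. The host genes reach 38.5%, the snoRNP core proteins 8 of 8, and all genes 18.8%. Genes of a list share libraries and are not independent.

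Markers of the myeloid lineage moved with the replicate number as well. Of 11 tested, 6 were called for the number term, against 18.8% of all genes. In 2 of the 6 both libraries numbered 3 lay above all others, and in 4 they lay neither above nor below all others. LYZ, which encodes lysozyme, was at 186, 220.0 and 481 FPKM in the shENO1 libraries, against 154, 182 and 461 FPKM in the wild type libraries. PRTN3 was at 17.1, 34.1 and 42.9 FPKM in the shENO1 libraries, against 12.9, 34.9 and 36.5 FPKM in the wild type libraries. The summed level of the 13 markers ran from 859 to 1405 FPKM in shENO1 and from 812 to 1360 FPKM in wild type. LYZ was high in the same libraries as SNHG16, while PRTN3 was low in the libraries numbered 1. Among the B-cell markers CD74 was the 1 called, at 121, 133 and 85.8 FPKM in the shENO1 libraries, against 144, 187 and 113 FPKM in the wild type libraries. The summed level of the 12 B-cell markers ran from 100.2 to 147 FPKM in shENO1 and from 129 to 201 FPKM in wild type. The part of these differences in the values of the host genes was not tested, and no label says what the libraries of one number share. In bulk RNA, a change in the share of cells that hold an RNA and a change in its amount per cell cannot be told apart.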

How the data were processed

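RNA-seq was compared between 3 shENO1 and 3 wild type libraries. The deposited values are FPKM. The submitters' notes name STAR, Cufflinks and Cuffnorm without versions, and the builds hg38 and GRCh38. The study called genes with a count model on reads, which FPKM do not allow. The labels name a column kit and the study's methods TRIzol for RNA extraction. Genes with at least 0.5 FPKM in at least 3 libraries were tested as log2(FPKM + 0.5) in limma (3.58.1, under R 4.3.3). The fit used an intensity trend, and tests were two-sided, Benjamini-Hochberg adjusted over 17870 genes. Calls needed an adjusted p under 0.05 and an absolute log2 fold change over 1, or for the replicate number an F test in a fit with group and number, at an adjusted p under 0.05. Residual degrees of freedom were 2 in this fit and 4 in the group fit.

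After group means were removed, the correlation across genes of same-numbered libraries was 0.312, 0.176 and 0.491, and of other pairs -0.390 to 0.144. The numbers are those of the sample titles. No label says what same-numbered libraries share, so only these correlations bear on pairing them. The code was tested on simulated data. Gene positions are from GENCODE release 29, start windows from RefSeq. Per-library values are given for GAS5 and ZFAS1, members averaging at least 20 FPKM, the 6 with the smallest group p, the 5 with the smallest number p, and members called in any planned fit. Of other lists the 2 genes with the smallest p are named. The members and lists were chosen with earlier results of these data known. Alternatives covered the filter, pseudocount, scaling, trend, library weights, the replicate block and libraries left out.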

Additional observations from a re-analysis of the deposited data

How the results depend on the processing

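In 18 alternative fits, 0 members were called between shENO1 and wild type, the replicate block included, and at most 1 had an unadjusted limma p under 0.05. It was 1 with library weights (against 1454 of 17870 genes) and 1 without wild type replicate 3 (against 681 of 17502). With both libraries numbered 3 left out it was 1 as well, against 962 of 18283 genes. Over all genes, 0 were called except for 4 with library weights, 1 with the replicate block and 3 with both libraries numbered 3 left out. Without 1 library at a time the members' median log2 fold change ran from -0.139 to 0.0373. Of the 21 named members 6 kept their sign throughout. With equal FPKM sums the log2 fold change turned to 0.0065 for ZFAS1, 0.026 for SNHG15, 0.024 for SNHG10, 0.028 for MALAT1 and 0.031 for SNHG22, with quantile normalization to -0.032 for SNHG3 and 0.020 for MALAT1, with library weights to 0.0073 for ZFAS1 and -0.025 for SNHG3, and without both libraries numbered 3 to -0.0028 for SNHG3, 0.063 for SNHG10 and 0.0060 for SNHG22. Without 1 library it ran from -0.507 to 0.210 for DANCR, -0.254 to 0.0898 for GAS5, -0.214 to 0.149 for MALAT1, -0.259 to 0.187 for SNHG1, -0.125 to 0.15 for SNHG10, -0.316 to 0.177 for SNHG12, -0.142 to 0.110 for SNHG15, -0.411 to 0.251 for SNHG16, -0.263 to 0.134 for SNHG17, -0.0939 to 0.331 for SNHG19, -0.120 to 0.115 for SNHG22, -0.513 to 0.287 for SNHG26, -0.287 to 0.299 for SNHG3 and -0.559 to 0.0291 for SNHG4. None of these values was called. For the number term, 0 members were called without the filter, without the trend and with both libraries numbered 3 left out (against 0.00686%, 0% and 0% of genes). In these fits 8, 10 and 3 members had an unadjusted limma p under 0.05, against 9.07%, 32.1% and 11.7% of genes. When the number means also had to span more than 1 log2 unit, 3 were called (SNHG16, DANCR and SNHG26), against 4.90% of genes. Without 1 library 0 to 8 members were called, against 0.00571% to 12.4% of genes. For the number term, the fits that left out libraries and the span of 1 log2 unit were chosen after seeing the data. The cause of these shifts was not tested. Depth is unknown, so no counting error can be given.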

Other observations

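Of 14 regulators of growth and of TOP-RNA translation, 5 were called for the replicate number term and 0 between shENO1 and wild type, against 18.8% and 0% of all genes. MYC, the transcription factor that Burkitt lymphoma translocates, was at 70.7, 115 and 139.6 FPKM in the shENO1 libraries, against 78.0, 148 and 162 FPKM in the wild type libraries, lowest in the libraries numbered 1. LARP1, which binds TOP tracts, was at 114, 109 and 158 FPKM in the shENO1 libraries, against 106, 115 and 155 FPKM in the wild type libraries. Its libraries numbered 3 were highest, like those of SNHG16. RHEB (log2 fold change 0.16) and EIF4EBP1 (0.20) had the smallest group p of the list, and 0 genes reached an unadjusted limma p under 0.05.

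Of 9 tested stress genes 4 were called for the number term, against 18.8% of all genes. ATF4, which drives the amino acid response, was at 222, 176 and 267 FPKM in the shENO1 libraries, against 209, 195 and 269 FPKM in the wild type libraries. MDM2, which restrains p53, was at 38.4, 38.3 and 58.8 FPKM in the shENO1 libraries, against 34.7, 38.6 and 59.0 FPKM in the wild type libraries. ATF3 (0.36) and TRIB3 (-0.19) had the smallest group p, and limma called 0 of the list between the groups, with 0 at an unadjusted p under 0.05. Of the T and NK cell markers 3 of 10 were tested, with NKG7 between 59.8 and 76.6 FPKM and CD2 at most 1.21 FPKM, and 0 were called for either term. Of the epithelial and stromal markers 2 of 10 were tested, PECAM1 and COL1A1, and 0 were called for either term.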
